A study of Mus musculus with 4 samples.

Results

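The regions described here are short stretches of open chromatin inside genes that were detected in every heart of the study. Overlapping peaks of the 4 deposited lists (1 shared bp sufficed) gave 53140 merged regions. A region was kept if it held a peak in all 4 hearts, was under 1000 bp wide, overlapped a protein-coding gene and lay more than 1 kb from any start or end coordinate of a protein-coding gene. This left 4174 short gene-body regions, which are 7.85% of all merged regions and 25.2% of the 16568 regions called in all 4 hearts. They were chosen by the peak calls, the width and the position, so none of these is a result.

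The hearts came from newborn C57BL/6 mice at postnatal day 0. There were 2 edKO hearts, which lack RXR alpha and RXR beta in cardiomyocytes (genotype RXRab-/-), and 2 wild-type (WT) hearts. Open chromatin was mapped by ATAC-seq, in which the transposase Tn5 cuts accessible DNA and inserts sequencing adapters, on nuclei of the total heart, with 1 heart per library and on average 25 M read pairs per library. The driver of the cardiomyocyte-specific deletion is not given in the sources used here, and cells other than cardiomyocytes keep both receptors. Neither the share of each cell type nor the accessibility per cell can be read from a whole heart, so fewer cells of a type and less open chromatin per cell cannot be told apart.

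Open chromatin inside genes is of several kinds. It includes enhancers, which are bound by transcription factors and act on a promoter at a distance, alternative promoters from which shorter or different transcripts start, and sites bound by CTCF, the protein that anchors chromatin loops. In heart muscle, enhancers bound by GATA4, MEF2, TBX5 and NKX2-5 drive contractile genes. RXR proteins bind DNA as partners of other nuclear receptors, among them the PPARs, which switch on genes of fatty acid use, and the retinoic acid receptors.

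Of the 4033 regions on chromosomes with promoter sequences at hand, 834 (20.7%) overlapped the window around an annotated transcript start that lies inside the gene. The window runs from 250 bases before to 50 bases after the start in the RefSeq annotation of build GRCm38.p6. A set of 6 of these windows, which recur in the results below, is shown 5′ to 3′ on the strand of the transcript. The first is the inner promoter of Rarb, a retinoic acid receptor (chr14:16575427-16575726, minus strand). Its region ranked far lower in both edKO hearts. Capitals mark a direct repeat of the hexamer read by nuclear receptors, with a spacer of 5 bases (DR5). It is followed by an inner start of Rbms1, an RNA-binding protein (chr2:60881389-60881688, minus strand), whose region ranked higher in both edKO hearts, and by that of Add3, an adducin of the membrane skeleton (chr19:53142506-53142805, plus strand), the strongest region with a transcript start. In both, capitals mark CCCCGCCC on either strand, the letters of the KLF and SP factors.
Rarb: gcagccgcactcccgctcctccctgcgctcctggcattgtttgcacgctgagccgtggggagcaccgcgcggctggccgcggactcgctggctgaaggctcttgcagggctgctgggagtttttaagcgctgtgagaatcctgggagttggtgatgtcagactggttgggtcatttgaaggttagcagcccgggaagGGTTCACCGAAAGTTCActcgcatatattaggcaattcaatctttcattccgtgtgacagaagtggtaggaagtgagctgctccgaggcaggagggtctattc
Rbms1: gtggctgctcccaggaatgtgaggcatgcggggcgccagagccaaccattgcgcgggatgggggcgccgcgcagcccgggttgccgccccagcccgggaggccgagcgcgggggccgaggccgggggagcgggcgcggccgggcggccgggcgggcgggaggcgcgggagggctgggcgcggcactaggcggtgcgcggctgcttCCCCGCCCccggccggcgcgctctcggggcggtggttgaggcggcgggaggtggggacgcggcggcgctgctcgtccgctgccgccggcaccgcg
Add3: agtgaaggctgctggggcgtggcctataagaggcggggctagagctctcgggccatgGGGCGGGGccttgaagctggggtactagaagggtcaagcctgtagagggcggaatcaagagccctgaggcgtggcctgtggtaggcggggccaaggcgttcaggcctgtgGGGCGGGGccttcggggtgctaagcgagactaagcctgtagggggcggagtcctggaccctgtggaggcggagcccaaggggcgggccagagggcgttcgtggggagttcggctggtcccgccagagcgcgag

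The other windows hold fewer CpG dinucleotides, with ratios of observed to expected CpG of 0.0784 for Mb, 0.214 for Ldb3 and 0.422 for Kcnq1ot1, against 0.696 for Rarb, 0.644 for Add3 and 0.993 for Rbms1. They are an inner start of Mb, myoglobin (chr15:77022678-77022977, minus strand, capitals mark the E-box CAGCTG), and of Ldb3, a Z-disc protein (chr14:34588558-34588857, minus strand, capitals mark a loose match to the MEF2 core). The search left the central bases of that core open. The Ldb3 match has a C among them, so it is not shown to be a MEF2 site. The last window is the start of Kcnq1ot1, the long non-coding RNA that runs antisense through Kcnq1 and silences neighbouring imprinted genes (chr7:143296498-143296797, minus strand, capitals mark CCAAT, the letters of the factor NF-Y).
Mb: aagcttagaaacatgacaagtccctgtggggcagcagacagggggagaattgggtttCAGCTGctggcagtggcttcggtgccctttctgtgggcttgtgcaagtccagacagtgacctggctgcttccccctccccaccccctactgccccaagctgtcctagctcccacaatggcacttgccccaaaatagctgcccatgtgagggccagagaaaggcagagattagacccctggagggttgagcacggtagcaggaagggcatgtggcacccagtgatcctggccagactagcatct
Ldb3: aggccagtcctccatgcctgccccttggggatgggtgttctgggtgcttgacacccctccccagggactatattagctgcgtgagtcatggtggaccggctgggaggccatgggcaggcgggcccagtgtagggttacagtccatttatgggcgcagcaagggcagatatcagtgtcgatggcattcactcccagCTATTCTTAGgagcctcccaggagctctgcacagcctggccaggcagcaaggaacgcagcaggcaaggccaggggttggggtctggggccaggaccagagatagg
Kcnq1ot1: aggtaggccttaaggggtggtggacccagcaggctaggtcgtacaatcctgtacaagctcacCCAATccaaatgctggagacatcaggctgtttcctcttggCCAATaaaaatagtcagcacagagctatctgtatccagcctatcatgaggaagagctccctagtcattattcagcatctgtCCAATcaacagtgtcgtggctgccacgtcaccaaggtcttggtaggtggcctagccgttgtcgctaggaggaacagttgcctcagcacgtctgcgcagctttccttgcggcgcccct

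A second set of sequences belongs to microRNA genes. Among the short gene-body regions, 7 overlapped an annotated microRNA gene. Such a region lay over Mir199a-2 in Dnm3 and over the first bases of Mir199b in Dnm1, whereas Mir199a-1, the third gene of the miR-199 family, had none. Their mature forms, from RefSeq (GRCm38.p6), are shown with the seed, bases 2 to 8, in capitals. Mir199a-2 gives miR-199a-5p (chr1:162217844-162217866, plus strand) and miR-199a-3p (chr1:162217883-162217904, plus strand), and Mir199b gives miR-199b-3p (chr2:32318524-32318545, plus strand), which lies outside the region. The 3p forms from the 2 genes are identical and share the seed CAGUAGU, whereas the 5p form from Mir199a-2 has the seed CCAGUGU.
miR-199a-5p: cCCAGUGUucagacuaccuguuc
miR-199a-3p: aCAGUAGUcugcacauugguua
miR-199b-3p: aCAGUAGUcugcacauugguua

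The libraries differed before any region was compared. The edKO lists held 27473 and 27142 peaks, against 35279 and 38809 in the WT lists. Over each library's 10000 strongest peaks the fold had a median of 10.2 and 7.61 in edKO 1 and edKO 2, against 10.8 and 11.5 in WT 1 and WT 2, so edKO 2 stood apart from the other 3 hearts. Without edKO 2, the rule found 6542 regions in place of 4174. For this reason regions were compared by rank: each region's −log10 p, the value that the authors' peak caller gave its strongest peak, was turned into a percentile among the 16568 regions called in all 4 hearts, separately in each heart. A percentile is free of a library's overall scale, but the ranks of a weaker library are noisier. Single fold and −log10 p values below are the authors' own, per peak, and describe only that list.

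The labelled tissue was checked on 21 genes that define cell types. All 5 cardiomyocyte genes had a region in at least 1 heart, and 4 of them (Myh6, Tnnt2, Ryr2 and Ttn) had a region at a gene end in all 4 hearts. Nkx2-5, the remaining gene, had its shared region in the gene body. Of the 3 endothelial genes (Pecam1, Cdh5 and Kdr) and the 3 fibroblast genes (Pdgfra, Col1a1 and Tcf21), 1 each had a shared gene end. Each of 3 other cell types had 1 gene with a shared gene end, namely Myh11 of mural cells, Wt1 of the epicardium and Klf1 of erythroid cells, and Csf1r of immune cells had a region in at least 1 heart. No region in any heart was found at Upk3b of the epicardium, Ptprc of immune cells, Gata1 of erythroid cells, or Sox10 of nerve. Among the targeted genes, Rxra held 2 short gene-body regions and Rxrb held 0. The first Rxra region (chr2:27699550-27699975) had −log10 p of 14.9 and 14.4 in the edKO hearts, against 31.4 and 28.5 in the WT hearts, and the second (chr2:27718209-27718552) had 8.63 and 7.39, against 6.94 and 18.7. In percentiles the groups overlapped at both, at 37.6 and 51.7 against 53.1 and 44.9, and at 14.8 and 17.4 against 2.58 and 27.2. Where the deletion lies within either gene is not known here, so these regions do not check the genotype.

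Short gene-body regions were weak beside open chromatin at gene ends, and close to that between genes. The merged regions had a median width of 515 bp (middle 50%, 424 to 650 bp). Their median −log10 p was 14.1 and 9.87 in the edKO hearts, against 20.2 and 23.3 in the WT hearts, and their median fold enrichment 6.20 and 4.66, against 6.67 and 7.27. Both measures were lowest in edKO 2 in every class of region. In percentiles the hearts lay close together, at 35.5 and 33.4 in the edKO hearts and 34.8 and 36.3 in the WT hearts.

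**Figure D1:**
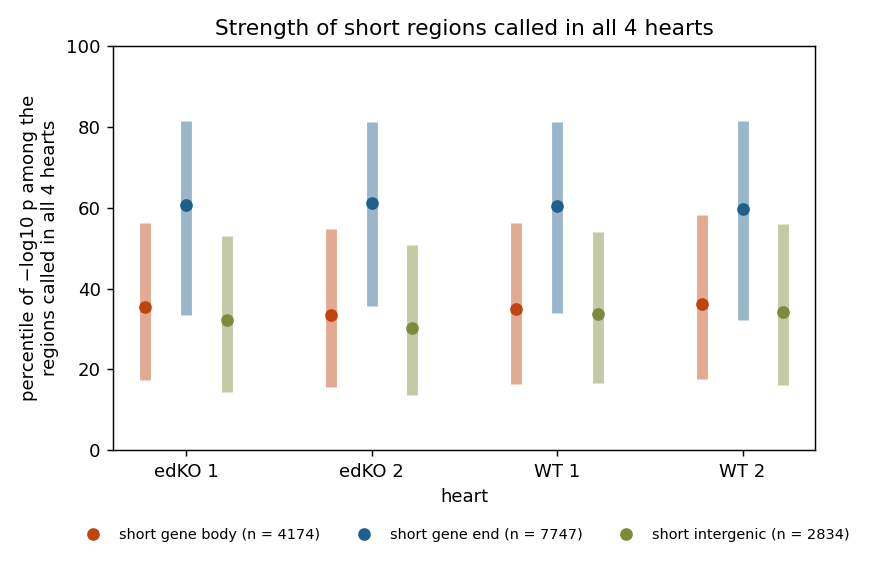
Percentile of −log10 p (vertical axis, 0 to 100) in each of the 4 hearts (horizontal axis) for short gene-body, short gene-end and short intergenic regions called in all 4 hearts. Dots are medians and bars span the middle 50% of regions. The medians of gene-body regions lie between 33.4 and 36.3 in all hearts, below those of gene-end regions at 59.7 to 61.1 and just above those of intergenic regions.

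Per heart, the peaks of gene-body regions had a median width of 389 ± 47.0 bp, against 523.5 ± 46.4 bp for the 7747 short gene-end regions (SD over n = 4 hearts), which is given as a description since width was part of the choice. Their median percentile was 34.996 ± 1.20, against 60.5 ± 0.564, a difference of −25.5 ± 1.73 points, and their median fold was 6.20 ± 1.12, against 8.86 ± 1.46. Percentile and fold were lower in 4 of 4 hearts (exact two-sided sign-flip permutation test, p = 0.125, the smallest p that 4 hearts allow). Against the 2834 short intergenic regions the differences were small. The percentile was higher by 2.39 ± 0.911 points in 4 of 4 hearts (exact permutation p = 0.125). The fold differed by −0.131 ± 0.138, lower in 3 of 4 hearts (exact permutation p = 0.25).

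Overlapping peaks were merged and widths kept under 1 kb, which bounds how far apart the summits of a region can lie. Their spread is therefore a description. The summits of the 4 hearts spread over a median of 77 bp in gene-body regions, against 64 bp in gene-end and 81 bp in intergenic regions. The median distance to the next short gene-body region was 45446 bp, and 20.2% had another within 10 kb. Even spacing at the density over all protein-coding genes, 0.408 regions per 100 kb, would leave a longer distance than this median. Whether the regions cluster was not tested. Of all 22066 gene-body regions under 1 kb called in any heart, 10324 were called in 1 heart, 4344 in 2, 3224 in 3 and 4174 in all 4. The widest region under the limit was in Rbm20 (999 bp), and the narrowest beyond it in Mbd6 (1001 bp) and Triobp (1002 bp). The nearest to a gene end was in Nudcd3 at 1001 bp, and the nearest left out lay 999 bp from the end of Hoxc6.

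The strongest short gene-body regions were among the strongest sites of the whole list in every heart. A region shared by Cmss1 and Filip1l, which overlap each other (chr16:57391276-57391773), had −log10 p of 302 and 375 in the edKO hearts, against 549 and 439 in the WT hearts. Its fold enrichment was 32.0 and 33.0, against 35.3 and 33.2, and its summits lay within 2 bp of each other. The next, in Zc3h7a, a zinc finger gene (chr16:11143862-11144400), had −log10 p of 221 and 300, against 430 and 413. Add3, whose inner promoter is shown above, had 248 and 234 in the edKO hearts, against 256 and 284 in the WT hearts. These 3 were followed by regions in Phf19, a Polycomb subunit, Nbeal1, Por, the electron donor of the P450 enzymes, Specc1, Pcmtd1, Ssc4d and Tbc1d14, with fold enrichments between 12.6 and 22.1 in the edKO hearts and between 11.1 and 21.5 in the WT hearts. Of the 10 strongest, 5 (Add3, Nbeal1, Por, Specc1 and Tbc1d14) lay over an annotated inner transcript start.

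Regions over inner transcript starts were stronger than the rest. The 834 regions with a start window had a median percentile of 51.9 ± 1.25, against 31.6 ± 1.96 for the 3199 without (SD over n = 4 hearts). Their peaks were 486 ± 44.2 bp wide, against 373 ± 47.9 bp, with a median fold of 7.71 ± 1.22, against 5.95 ± 1.09. By heart the difference in percentile was 20.7 and 23.5 points in the edKO hearts, against 18.8 and 17.9 in the WT hearts. It was above 0 in 4 of 4 hearts (exact two-sided sign-flip permutation test, p = 0.125, the smallest possible), and the edKO and WT differences were 22.1 and 18.4 on average (exact permutation p = 0.333, the smallest p for 2 hearts against 2). Of these regions, 758 lay over another start of the host gene itself and 76 over the start of a long non-coding RNA. The start sat close to the summit, at a median distance of 62 bp, and 84.4% of the 1014 starts lay within 200 bp. More starts (71.2%) lay downstream than upstream of the summit. These starts were chosen because their window overlapped a region under 1000 bp wide, which bounds the distance. The window also reaches farther upstream than downstream of the start, which favours starts downstream of the summit. Both values are therefore descriptions.

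Most annotated inner starts had no open region. Of 6389 start windows inside gene bodies, 1310 (20.5%) overlapped a region called in all 4 hearts, 587 one called in 1 to 3 hearts, and 4492 (70.3%) none. The windows over short gene-body regions had a median GC content of 62.7%, against 48.7% for the inner windows with no region and 53.0% for all 32619 windows. Their median ratio of observed to expected CpG was 0.724, against 0.241 and 0.387. The ratio reached 0.6, a common limit for CpG islands, in 68.2% of them, against 7.84% and 36.0%. These are descriptions of 1 set of windows beside another, and windows of the same gene can overlap.

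**Figure D2:**
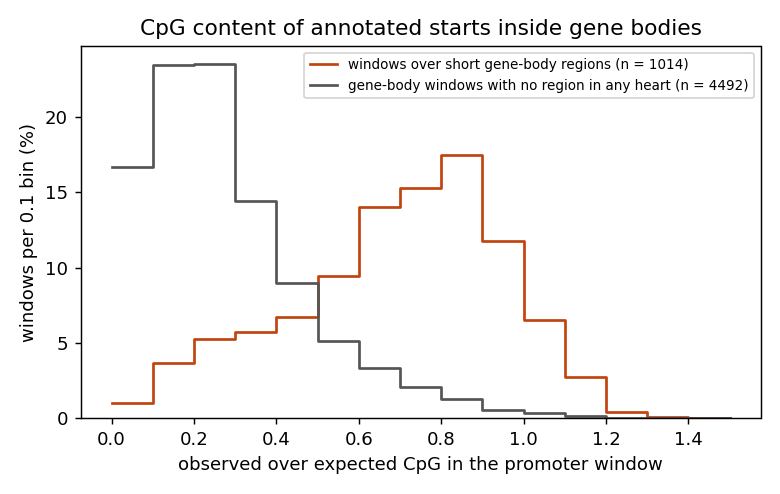
Ratio of observed to expected CpG (horizontal axis, in bins of 0.1) of start windows inside gene bodies, as a share of windows per bin in percent (vertical axis). The 1014 windows over short gene-body regions centre above 0.6 (median 0.724), and the 4492 windows with no region in any heart below it (median 0.241).

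The letters of promoter factors followed the same split. CCCCGCCC, read by KLF and SP factors, stood on either strand in 34.7% of the windows over short gene-body regions, against 5.83% of inner windows with no region and 17.7% of all windows of this length. The ETS letters CCGGAAG stood in 13.9%, against 2.27% and 8.92%, and the NRF1 letters in 8.88%, against 0.490% and 4.63%. The CTCF core was found in 2.76%, against 0.312% and 1.29%. GATA letters (AGATAA) were less frequent, at 4.44%, against 14.1% and 11.2%, as were NKX2-5 letters (CACTTNA), at 8.19%, against 13.6% and 11.6%. The E-box CAGCTG had nearly the same share in each set, at 18.3%, against 19.1% and 16.4%, and so did CCAAT, at 34.3%, against 34.5% and 37.6%. The share of GC-rich letters moves with base composition, whose part in these shares was not tested. The sequence of the 3199 regions without a start window was not at hand, so nothing is said of their motifs.

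More short gene-body regions lay in the 5′ than in the 3′ part of their genes, and most of this lean came with the inner starts. The strand of the host was at hand for 3261 of the 4116 regions with 1 host gene, and the position of the others was not examined. Of the 3261 regions, 57.9% lay upstream of the midpoint of the gene, with 431 in the first of 10 equal bins from the 5′ end and 214 in the last. Regions over start windows were concentrated near the 5′ end, with 211 in the first bin, 147 in the next and 13 in the last. Of 804 regions over a start 630 (78.4%) lay upstream of the midpoint, whereas of the 2457 others 1257 (51.2%) did. The median distance was 26139 bp from the gene's start and 14020 bp from the nearest start or end coordinate of any protein-coding gene, and 58.6% lay over 10 kb from one. Host genes, each counted once, had a median length of 59088.5 bp, against 17329 bp for all protein-coding genes, and the required distance from gene ends favours long hosts.

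**Figure D3:**
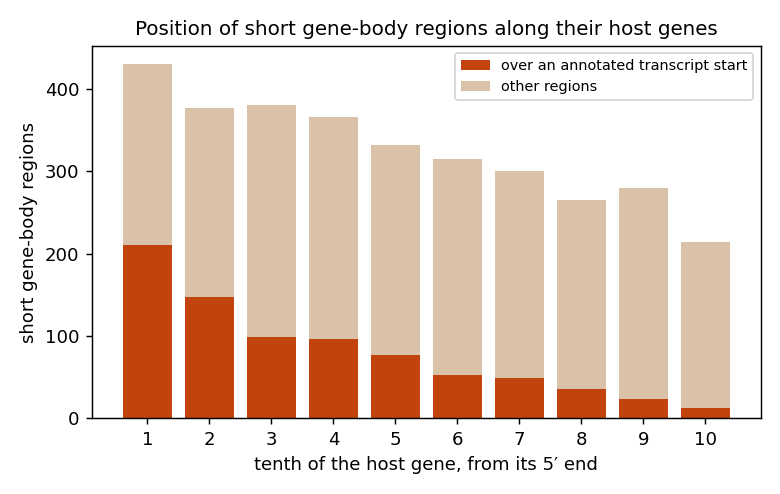
Number of short gene-body regions (vertical axis) in each of 10 equal bins of the host gene from its 5′ end (horizontal axis), for 3261 regions with 1 host whose strand was at hand. The dark part of a bar counts regions over an annotated inner transcript start. The count is 431 in the first bin, of which 211 are over a start, and 214 in the last, of which 13 are.

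Of 21631 protein-coding genes, 2801 held at least 1 short gene-body region, which is 12.9%. Of these genes 1945 held exactly 1, and 137 genes with 4 or more held 706 regions together. The share rose with length, at 1.92% of genes under 10 kb, 10.3% of genes of 10 to 30 kb, 21.3% of genes of 30 to 100 kb and 37.7% of longer genes. The density per 100 kb was 0.491, 0.647, 0.552 and 0.294 in the same order. Tns1, tensin 1, a link between actin and focal adhesions, held 16, the most of any gene. It was followed by Gse1 and Nav2 with 10 each, and by Rbm20, Maml3 and Ppargc1a with 9 each. This order depended on the limits: where all 4 peaks had to reach a −log10 p of 10, Tns1 had 12, Rbm20 9, Gse1, Maml3 and Ppargc1a 4 each and Nav2 2. With widths under 500 bp Tns1 had 6, Nav2 and Ppargc1a 4 each, Gse1 3, Maml3 2 and Rbm20 1. Rbm20 encodes the splicing factor of titin, Maml3 a coactivator of Notch, and Ppargc1a the coactivator of mitochondrial biogenesis PGC-1 alpha.

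Over all protein-coding genes there were 0.408 regions per 100 kb. Among genes with 4 or more regions the densest was Kdm6b, the H3K27 demethylase JMJD3, with 7 regions in 21860 bp, or 32.0 per 100 kb. At a −log10 p of 10 in all hearts, and also at a width under 500 bp, 4 of the 7 were left. Mb, the oxygen store of muscle, held 6 in 35182 bp (17.1 per 100 kb), Asb2, a muscle ubiquitin ligase subunit, 5 (14.3), Ripor1 4 (14.2) and Nfic 5 (14.0). The 6 Mb regions were of very different strength. The weakest (chr15:77021061-77021449) had −log10 p of 8.49 and 5.13 in the edKO hearts, against 10.6 in each WT heart. The one over the inner start shown above (chr15:77022482-77022963) had 31.3 and 19.4, against 35.2 and 48.7, and percentiles of 67.3 and 63.8, against 57.7 and 66.4, so the groups overlapped.

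Of the lists of genes examined, that of the sarcomere had the highest share of genes with such a region and the highest density. The lists below were compiled with earlier results of these data known, and their shares are descriptions to be read beside the 12.9% of all genes and the length of the genes, with which the share rises. Of 48 sarcomere and contractile genes, 25 (52.1%) held a short gene-body region, at 1.49 per 100 kb, and their median length was 28347 bp. Cardiac transcription factors followed with 29 of 59 (49.2%, 0.948 per 100 kb, median length 53492 bp), then nuclear receptors and coregulators with 22 of 45 (48.9%, 0.711 per 100 kb, 71942 bp) and calcium handling and excitation with 22 of 49 (44.9%, 0.697 per 100 kb, 65222 bp). Glycolysis and glucose uptake genes had 11 of 34 (32.4%) and a high density of 1.30 per 100 kb. Genes of fatty acid uptake and oxidation had 8 of 40 (20%, 0.727 per 100 kb) and PPAR and RXR target genes 9 of 28 (32.1%, 1.03 per 100 kb). Oxidative phosphorylation and TCA cycle genes, which are short (median 16834 bp), had 5 of 43 (11.6%, 0.467 per 100 kb). Housekeeping genes (median 9269 bp) had 1 of 26, Actb, whose 2 regions gave 0.519 per 100 kb. Both densities were above the 0.408 of all genes.

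**Figure D4:**
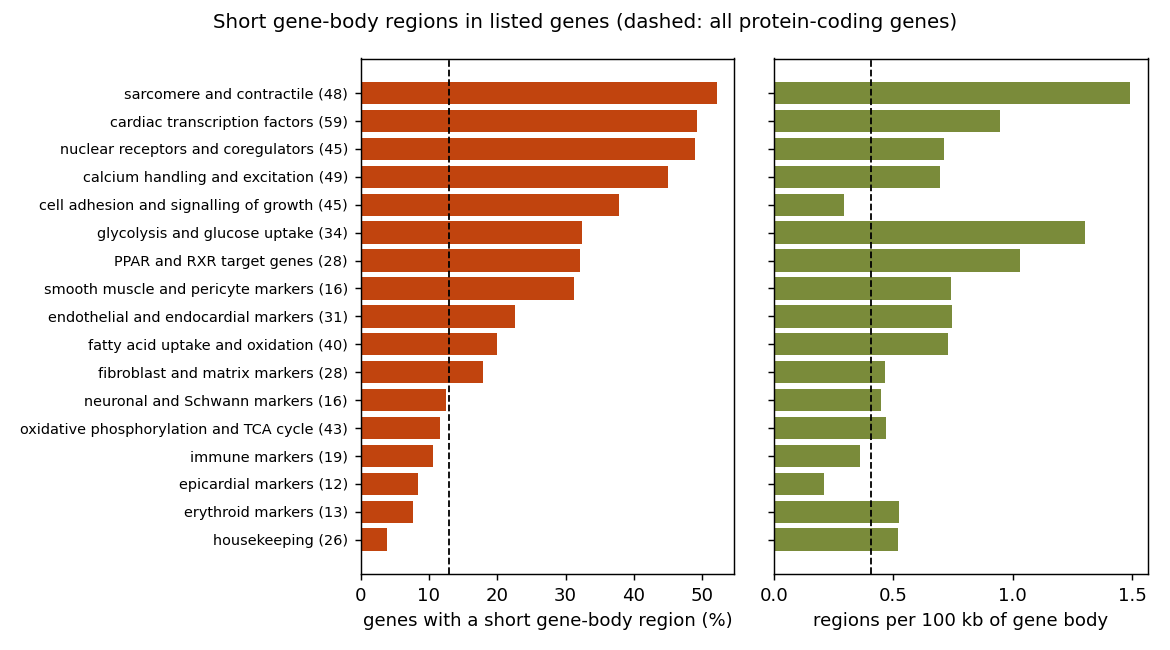
Left, percent of the genes of each list that hold a short gene-body region. Right, short gene-body regions per 100 kb of gene body. Numbers in brackets are the genes of the list, and dashed lines give all protein-coding genes (12.9% and 0.408 per 100 kb). Sarcomere genes are highest in both, at 52.1% and 1.49, and adhesion and growth signalling genes have a high share (37.8%) at a low density (0.292).

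Markers of other cells had lower shares than these 4 lists, but not always a lower density. Smooth muscle and pericyte markers had 5 of 16 (31.25%, 0.740 per 100 kb), endothelial and endocardial markers 7 of 31 (22.6%, 0.748 per 100 kb) and fibroblast and matrix markers 5 of 28 (17.9%, 0.464 per 100 kb). The densities of smooth muscle and endothelial markers were above those of nuclear receptors and calcium handling. Neuronal and Schwann markers had 2 of 16, immune markers 2 of 19, epicardial markers 1 of 12 (Sema3d) and erythroid markers 1 of 13 (Ank1). Cell adhesion and growth signalling genes, the longest of the lists (median 104294 bp), had 17 of 45 (37.8%) but only 0.292 regions per 100 kb, below the 0.408 of all genes.

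Whether the edKO hearts ranked these regions differently was asked first over all of them. The median percentile was 34.5 ± 1.45 in the edKO hearts and 35.5 ± 1.01 in the WT hearts (SD, n = 2 each), a difference of −1.09 (exact two-sided permutation test, p = 0.667). The ratio of the median fold of gene-body to gene-end regions was 0.689 ± 0.00407 in the edKO hearts and 0.707 ± 0.0197 in the WT hearts, a difference of −0.0179 (exact permutation p = 0.333, the smallest that 2 hearts against 2 allow). With intergenic in place of gene-end regions that difference turned to 0.0295 (0.995 ± 0.0132 against 0.966 ± 0.00656, exact permutation p = 0.333). The median distance between the percentiles of a region was 9.93 points between the edKO hearts and 7.85 between the WT hearts. It was 9.002, 9.06, 10.8 and 11.3 between hearts of different genotype, with edKO 1 nearer to both WT hearts than to edKO 2, and edKO 2 nearer to edKO 1 than to either WT heart.

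Single regions were then sorted by the gap between the groups, the number of percentile points that separate the nearer values of the edKO pair and the WT pair. Of the 4174 regions, 276 (6.61%) ranked at least 10 points lower in both edKO hearts than in both WT hearts, where the share over all 16568 regions called in all 4 hearts was 4.35%. In the other direction 219 (5.25%) ranked at least 10 points higher in both edKO hearts, where the share over all was 4.24%. At a limit of 20 points, 81 (1.94%) were lower, where the share over all was 1.16%, and 39 (0.934%) higher, where it was 0.682%. With no limit, 907 (21.7%) were lower in both edKO hearts, where the share over all was 19.9%, and 795 (19%) higher, where it was 20.2%. The excess of lower over higher regions depended on the hearts compared: at 10 points it was 849 against 652 without edKO 1, 542 against 542 without edKO 2, 639 against 448 without WT 1 and 509 against 491 without WT 2. A pair is separated from 1 heart more easily than from another pair, so these counts are larger throughout. Gene-end regions had 2.61% lower and 3.90% higher, and intergenic regions 7.90% lower and 3.85% higher. Regions in the middle of the ranking can move farther than the strongest ones, so the classes were also set side by side within bands of strength. Between the 25th and 50th percentile 9.72% of gene-body regions were lower, against 5.13% of gene-end and 10.1% of intergenic regions, and 7.91%, 7.91% and 5.06% were higher. Above the 75th percentile 1.06% of gene-body regions were lower and 1.06% higher. No single region was tested, since the authors' −log10 p does not measure a difference between hearts.

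**Figure D5:**
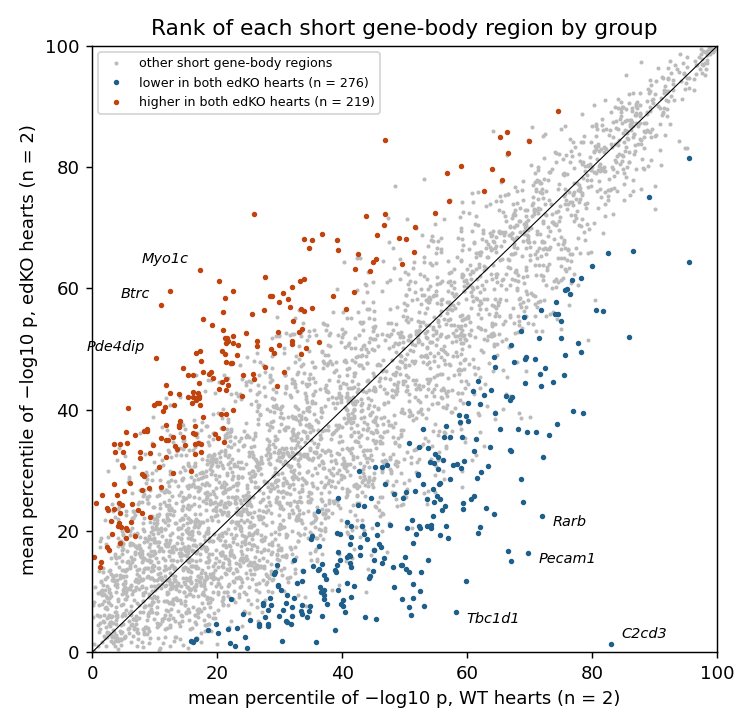
Mean percentile of −log10 p over the 2 edKO hearts (vertical axis) and the 2 WT hearts (horizontal axis) for each of the 4174 short gene-body regions. The line marks equal rank. Blue points, 276 regions, ranked at least 10 points lower in both edKO hearts, and orange points, 219 regions, at least 10 points higher. The region in C2cd3 lies farthest below the line.

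Regions over inner transcript starts were seldom in the lower group. Of the 834 with a start window 17 (2.04%) were lower in both edKO hearts, against 245 of 3199 (7.66%) without one. Higher were 49 (5.88%), against 161 (5.03%). The regions with a start were also the stronger ones, as given above, and the part of strength in this difference was not tested.

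The widest gap of all lay in C2cd3, a centriole gene (chr7:100465276-100466258). Its −log10 p was 5.57 and 4.14 in the edKO hearts, against 69.8 and 86.7 in the WT hearts. Its fold enrichment was 3.82 and 2.81, against 9.82 and 11.4, and its percentile 2.54 and 0.311, against 81.0 and 85.0. Both edKO hearts had it among their weakest shared regions and both WT hearts among the stronger ones, with a gap of 78.5 points between the pairs (written as −78.5, lower in edKO). The summits of the 4 hearts spread over 175 bp there, against a median of 77 bp in all short gene-body regions. The peaks compared need therefore not mark the same site. Genes are named here as hosts of a region, and which gene a region acts on was not tested. The next widest gap was 45.1 points (−45.1), in Tbc1d1, a Rab GTPase-activating protein of glucose uptake in muscle (chr5:64326276-64326879), with percentiles of 9.29 and 3.96 in the edKO hearts, against 54.4 and 62.0 in the WT hearts.

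The next 6 lay in genes of varied function. Pde7b, a cAMP phosphodiesterase, had percentiles of 13.3 and 16.7 in the edKO hearts, against 61.6 and 72.5 in the WT hearts. Pecam1, the adhesion molecule of endothelial cells (chr11:106677791-106678395), had 23.5 and 9.35, against 63.3 and 76.0. Mdh1, the cytosolic malate dehydrogenase (chr11:21561285-21561822), had 9.22 and 3.17, against 47.1 and 54.9. The others were 6820408C15Rik, whose region lay over an inner start, Radil and Ap3b1, at 3.70 to 19.9 in the edKO hearts, against 48.6 to 60.4 in the WT hearts. In all of these regions the pairs did not overlap, which is how they were chosen. The summits spread over 241 bp in Pecam1, 203 bp in Radil, 191 bp in Ap3b1, 178 bp in Mdh1 and 116 bp in Pde7b. The median over all short gene-body regions was 77 bp, so the peaks compared there need not mark the same site. In 6820408C15Rik, and in Tbc1d1 above, the spread was 47 bp.

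Rarb ranked eleventh by gap in the lower direction and was looked at after its value had been seen. Its region (chr14:16575218-16575854) had −log10 p of 15.1 and 6.01 in the edKO hearts, against 50.1 and 58.9 in the WT hearts, and fold enrichments of 7.24 and 3.94, against 13.3 and 13.2. Its percentile was 38.2 and 6.83, against 70.7 and 73.3, so the edKO hearts differed from each other by nearly as much as edKO 1 from the WT hearts. The summits of the 4 hearts spread over 292 bp there, against a median of 77 bp in all short gene-body regions. The peaks compared need therefore not mark the same site within the region. The sequence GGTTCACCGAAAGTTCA, capitals in the window shown above, starts 53 bases before the annotated start. Direct repeats of this spacing are known as sites of the RAR and RXR pair, and the promoter of Rarb is a textbook example. A repeat of the degenerate hexamer with this spacing stood in 1 of the 1014 windows over short gene-body regions, in 4 of the 4492 inner windows with no region and in 32 of all 32619. Spacers of 1, 2 and 4 bases were searched as well and stood in 2, 0 and 0 of the 1014 windows. The 2 regions with a spacer of 1 base, in Phactr2 and Tmem248, were not lower in the edKO hearts. Phactr2 was higher by 3.57 points, and at Tmem248 the groups overlapped. These letters were searched after Rarb had been seen.

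In the other direction the gaps were narrower. The widest was 35.7 points in Pde4dip, myomegalin, an anchor of a cAMP phosphodiesterase (chr3:97811732-97812293). It had percentiles of 46.2 and 51.0 in the edKO hearts, against 10.04 and 10.4 in the WT hearts, and −log10 p of 18.2 and 14.2, against 10.1 and 11.6. Btrc, a ubiquitin ligase subunit, had percentiles of 56.9 and 57.5, against 21.5 and 0.456. Myo1c, an unconventional myosin, had 53.7 and 72.4 in the edKO hearts, against 19.5 and 14.9 in the WT hearts, and its region lay over an inner start. Rbms1, with the inner start shown above (chr2:60880845-60881771), had 49.4 and 69.8, against 9.38 and 15.7. Dnm1, Bcat2, the mitochondrial branched-chain aminotransferase, Fbxo31 and Med26 made up the 8 widest, at 51.4 to 59.2 in the edKO hearts, against 13.9 to 27.0 in the WT hearts. In each of these regions both edKO values lay above both WT values. The summits spread over 223 bp in Myo1c and 158 bp in Bcat2, where the peaks compared need not mark the same site. In the others they spread over 54 to 90 bp, near the median of 77 bp.

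Among genes of fatty acid use, 3 of 9 regions ranked lower by at least 10 points in both edKO hearts and 0 higher, where all short gene-body regions had 6.61% and 5.25%. The first lay in Cpt1a, the carnitine palmitoyltransferase that lets long-chain fatty acids into mitochondria (chr19:3325135-3325691). Its −log10 p was 15.6 and 14.3 in the edKO hearts, against 64.0 and 57.4 in the WT hearts, and its percentile 39.9 and 51.4, against 78.7 and 72.4. A second region of Cpt1a had 40.1 and 46.4, against 54.5 and 60.5, lower in both edKO hearts by 8.11 points (−8.11), under the limit of 10.

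Eci2, an enoyl-CoA isomerase of beta oxidation (chr13:34993939-34994836), had percentiles of 82.4 and 80.5 in the edKO hearts, against 95.0 and 95.9 in the WT hearts. It remained a strong site in all hearts, with −log10 p of 52.3 and 33.4, against 127 and 148, and lay over an inner start. Hadh, the hydroxyacyl-CoA dehydrogenase of the same pathway, had 26.4 and 21.8, against 42.9 and 44.2. The strongest region of the list was in Acacb, the acetyl-CoA carboxylase that makes the inhibitor of Cpt1 enzymes, and it overlapped between the groups at 96.7 and 98.2, against 87.6 and 97.3. Lpl, lipoprotein lipase, lay at 53.4 and 60.007, against 60.5 and 68.9, with a gap of under 1 point. The median over the 9 regions was 42.6 and 51.4 in the edKO hearts, against 60.5 and 68.9 in the WT hearts.

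The 15 regions of PPAR and RXR target genes, which share the Cpt1a regions with that list, had 2 lower (Rarb and Cpt1a) and 0 higher, where all short gene-body regions had 6.61% and 5.25%. Their median percentile was 38.2 and 37.5 in the edKO hearts, against 49.6 and 45.5 in the WT hearts. Tgm2, transglutaminase, held 4 of them. The strongest (chr2:158122706-158123378) had 86.7 and 82.3 in the edKO hearts, against 64.3 and 75.1 in the WT hearts, higher by 7.16 points, under the limit. Srebf1, the regulator of lipid synthesis, had both its regions over an inner start, the stronger at 43.6 and 62.9, against 81.0 and 69.0, with a gap of 6.11 points (−6.11). Regions of such genes were already known to be missing more often from the edKO peak lists, so these values are no independent evidence of that direction.

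In the sarcomere the regions went both ways. Of 57 regions 3 ranked lower (in Fhod3, Nebl and Sorbs2) and 7 higher, where all short gene-body regions had 6.61% lower and 5.25% higher and all shared regions 4.35% and 4.24%. Those higher included regions in Cmya5, Ldb3, Sorbs2 and Myl3 and 2 in Tpm1. Tpm1, the main tropomyosin of the heart, had its stronger region (chr9:67043541-67044182) at 80.3 and 79.0 in the edKO hearts, against 62.4 and 65.6 in the WT hearts. Cmya5, myospryn, had 49.1 and 52.5, against 29.7 and 34.4. Nebl, nebulette of the Z-disc, had 12.2 and 3.17, against 31.1 and 38.5. The strongest region of the list was in Tnni1, the slow troponin I of the fetal heart, at 87.9 and 89.98, against 87.3 and 86.8, a gap of under 1 point. Myl2, the ventricular myosin light chain, had regions at 87.2 and 83.4, against 82.2 and 83.2, and at 74.4 and 66.5, against 78.4 and 77.4. Ldb3, whose inner start is shown above, had 5 regions, and that over the start overlapped between the groups at 75.3 and 79.3, against 67.7 and 75.8. The median over the list was 47.9 and 39.1 in the edKO hearts and 39.9 and 42.7 in the WT hearts.

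The 64 regions of calcium handling and excitation genes had 5 lower, among them regions in Pde4d, Kcnd3, Camk2d and Itpr1, and 3 higher (in Asph, Cacna1c and Kcnq1), near the 6.61% and 5.25% of all short gene-body regions. Kcnq1, a potassium channel of repolarisation, held 8, more than any other gene of the list. The one that ranked higher (chr7:143153819-143154341) had percentiles of 40.2 and 42.9 in the edKO hearts, against 15.8 and 17.3 in the WT hearts. The one over the Kcnq1ot1 start (chr7:143296394-143296965) was the strongest and overlapped between the groups, at 75.2 and 57.7, against 73.3 and 72.4. Ryr2, the calcium release channel, held 3 of 24 short gene-body regions that were called in any heart, the strongest at 42.4 and 16.9, against 53.2 and 45.8.

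Cardiac transcription factors had 4 of 60 regions lower, near the 6.61% of all short gene-body regions, and 0 higher, where all had 5.25%. Prdm16, a factor of compact myocardium (chr4:154442665-154443344), had percentiles of 5.52 and 10.3 in the edKO hearts, against 42.1 and 33.0 in the WT hearts, whereas its 3 other regions had gaps of under 4 points or overlapped. Mef2a had 4.51 and 7.61, against 25.8 and 47.8, and Foxp1 21.97 and 24.5, against 34.9 and 37.4. The strongest regions of the list did not reach 10 points in either direction. Myocd, myocardin, had 90.8 and 88.6 in the edKO hearts, against 82.4 and 90.4 in the WT hearts. Nkx2-5 had 81.7 and 78.5, against 83.7 and 87.4, and Srf 82.4 and 73.3, against 86.7 and 86.3, both over an inner start. The 3 regions of Gata4 overlapped between the groups, at 11.2 to 55.5 in the edKO hearts and 13.8 to 67.2 in the WT hearts.

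Nuclear receptors and coregulators had 4 of 47 lower (in Rarb, Nr3c2, Esrrg and Ppargc1a) and 2 higher (in Nr4a1 and Ppargc1a), near the 6.61% and 5.25% of all short gene-body regions. Nr3c2, the mineralocorticoid receptor, had a region 111695 bp from the nearest gene end at 21.0 and 20.1 in the edKO hearts, against 49.0 and 55.9 in the WT hearts. Its other region, over an inner start, overlapped between the groups at 82.0 and 88.3, against 76.5 and 84.7. Ppargc1a held regions of both directions. That at chr5:51591439-51592239 had 57.5 and 55.2 in the edKO hearts, against 74.97 and 68.6 in the WT hearts, and that at chr5:51537035-51537378 had 32.9 and 38.3, against 18.97 and 10.02. Its strongest region (chr5:51899437-51900153) overlapped at 79.3 and 69.96, against 75.6 and 70.5.

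Counts in the oxidative phosphorylation and glycolysis lists are to be read beside the 6.61% lower and 5.25% higher of all short gene-body regions. Of the 5 regions in oxidative phosphorylation and TCA cycle genes, 1 was lower (Mdh1, above) and 1 higher (Ogdh, at 13.0 and 15.1, against 1.09 and 1.30). Mdh1 was counted in this list although it is the cytosolic enzyme. The median percentile over the 5 regions was 31.8 and 15.1 in the edKO hearts, against 47.1 and 54.9 in the WT hearts. Of the 16 in glycolysis genes 0 passed 10 points in either direction, which is too few regions to read as a difference. The strongest of these, in Pfkfb3, which makes the activator of phosphofructokinase, had 87.8 and 80.8 in the edKO hearts, against 94.3 and 93.4 in the WT hearts. In Hk1, a hexokinase, the region over an inner start overlapped at 89.3 and 88.6, against 88.6 and 86.6.

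Genes listed as markers of cells that keep both receptors are set beside these results. A listed gene can also be open in cardiomyocytes, which was not tested. The few calls in these lists are to be read beside the 6.61% lower and 5.25% higher of all short gene-body regions. Of 13 endothelial regions 1 was lower (Pecam1) and 0 higher, and of 7 smooth muscle and pericyte regions 1 was lower (Abcc9, at 47.0 and 48.8, against 65.9 and 69.0) and 0 higher. The 7 fibroblast, 3 immune, 2 erythroid, 2 neuronal and 1 epicardial regions had 0 in either direction. The median percentile of the endothelial regions was 35.05 and 14.98 in the edKO hearts, against 27.4 and 34.9 in the WT hearts. For the fibroblast regions it was 26.0 and 11.6, against 32.7 and 37.0, and for the smooth muscle and pericyte regions 46.9 and 32.8, against 56.5 and 48.4. So the medians of these 2 lists lay lower in both edKO hearts as well, as they did for fatty acid genes. A part of cell composition in any of these gaps was not tested.

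The genes with most regions did not move as blocks. Their counts are to be read beside the 6.61% lower and 5.25% higher of all short gene-body regions. Tns1 had 4 of 16 regions higher in both edKO hearts and 0 lower. The widest gap, 20.9 points, was at chr1:74007594-74008365, with 84.7 and 84.3 in the edKO hearts, against 63.4 and 30.2 in the WT hearts, while its strongest region overlapped at 72.2 and 76.1, against 67.0 and 74.1. Rbm20 had 1 of 9 higher and 0 lower, and its strongest region, at 86.9 and 81.3, against 80.7 and 79.0, had a gap of under 1 point. Gse1 had 1 of 10 lower, at 47.5 and 46.3 in the edKO hearts, against 71.2 and 73.6 in the WT hearts, and 0 higher. Nav2 had 0 of 10 in either direction.

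The regions over the miR-199 genes, whose mature sequences are shown above, were of middling or low rank. That over Mir199a-2 in Dnm3 (chr1:162217380-162217966) covered the whole hairpin and had percentiles of 30.8 and 13.8 in the edKO hearts, against 36.6 and 38.9 in the WT hearts, with a gap of 5.78 points (−5.78). That in Dnm1 (chr2:32317921-32318480) overlapped Mir199b by 21 bp and ranked higher in both edKO hearts, at 52.0 and 20.6, against 7.21 and 3.73. The edKO hearts differed more from each other there than edKO 2 did from the WT hearts. Others lay over Mir5620 in Clcn4, Mir7687 in Gse1, Mir8104 in Ppm1h and Mir6387 in Trib2, and over Mir34b where Hoatz and Btg4 overlap. The last was among the weakest, at 7.99 and 7.61, against 0.175 and 2.16.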

How the data were processed

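ATAC-seq libraries of 2 edKO and 2 WT hearts were each deposited as a list of peaks. CASAVA, bcl2fastq, cutadapt, Bowtie2, SAMtools and MACS2, and the builds mm10 and GRCm38, are named per the submitters' processing notes, with no order, version or setting. Peaks were called per library, and in the authors' lists each has a score, a fold enrichment over background (a ratio), a −log10 p, a −log10 q and a summit position. The numbers of reads behind a peak were not used here, so counting error is unknown and no single region was tested.

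From these values regions were merged on chromosomes 1 to 19 and X and placed against the protein-coding genes of the GRCm38.p6 table with Python 3.11.15, pandas 2.3.3 and NumPy 2.4.6, and ranked within each heart by the −log10 p of the strongest peak. Merging and placement were tested on a small made-up example, and the ranked comparison, in the lower direction only, on simulated percentiles. The other steps were not tested in this way. Medians were compared between hearts by exact two-sided permutation. Nothing says whether same-numbered hearts were paired.

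A search for motifs within the regions had been planned, but no genome was used here, so motifs were searched on both strands of RefSeq start windows only, which were not analysed on chromosome 18. Promoter windows can overlap, and so can motifs. Named genes were the 8 widest gaps in each direction, the 10 strongest regions, the genes with most and densest regions and, in each gene list, those with most regions and the strongest one. Other genes, with Rarb among them, were named after their values were seen. All 542 listed genes were matched by symbol. The regions and lists were chosen with earlier results of these data known. A few listed genes are not reported here.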

Additional observations from a re-analysis of the deposited data

How the results depend on the processing

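The number of short gene-body regions was 1821 where all 4 peaks had to reach a −log10 p of 10, and 1919 with a width under 500 bp, and between 4377 and 6542 when 1 heart was left out, the highest without edKO 2. The share over an inner transcript start was 32.2% under that stricter limit, and between 15.3% and 20.5% with 1 heart left out. The edKO minus WT difference in the ratio of fold enrichments, −0.0179 against gene-end regions, was 0.0295 against intergenic regions. Regions ranked lower in both edKO hearts numbered 81 and higher 39 at a gap of 20 points, and 907 and 795 at a gap of 0 points. With 1 heart left out there were between 509 and 849 lower and between 448 and 652 higher. Of the 11 genes named for most or densest regions, the count moved by over 1.5 times in 6 at the −log10 p limit and in 10 at the width limit. The counts of regions move because a stricter limit keeps fewer regions and 1 heart is easier to separate from a pair. The cause of the turn in sign of the fold ratio was not tested. Ranking by fold gave 321 lower and 220 higher, and ranking the regions among themselves, which was tried only once the values were known, 316 and 306.

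With the replicate number as a block, the paired difference in percentile was −1.09 (exact permutation p = 1) and that in the fold ratio −0.0179 (exact permutation p = 0.5, the smallest that 2 pairs allow).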
